A study of Homo sapiens with 6 samples.

Results

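The 10 genes described here are imprinted loci, chosen by name: H19, IGF2, KCNQ1OT1 and CDKN1C of chromosome band 11p15, DLK1 and MEG3 of 14q32, SNRPN of 15q11, PEG10 of 7q21, PEG3 of 19q13 and GNAS of 20q13. They are 10 of the 59609 gene symbols listed in the deposited tables. RNA was sequenced from untreated wild-type cells that the labels call both H9-derived forebrain neurons and, by source, forebrain neuron progenitors, at day 26 of culture. H9 is an established human embryonic stem cell line, so every library here comes from 1 genetic background. After depletion of ribosomal RNA, 2 replicate libraries were made from each of total-cell, cytoplasmic and nuclear RNA, 6 in all. Whether replicates were grown separately is not labelled, and the p-values therefore cover the spread of these libraries alone, possibly a technical one.

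An imprinted gene is transcribed mainly from the copy inherited from 1 parent, because a nearby control region carries DNA methylation on 1 copy only. At 11p15 the maternal copy makes the noncoding RNA H19 and the paternal copy makes the growth factor IGF2, while the long noncoding RNA KCNQ1OT1 is made from the paternal copy and silences CDKN1C and its neighbours on that copy. Many imprinted genes act in growth and in brain development. The deposited values do not separate the parental copies, so only summed levels are described.

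Levels are given in FPKM, fragments scaled by exon length and library size, as deposited by the authors. The lncRNA table was used for H19, MEG3 and KCNQ1OT1 and the mRNA table for the other 7, and no test crosses the tables. The steps of the FPKM values correspond to 38.7 M and 45.7 M reads for the cytoplasm, 120 M and 112 M for the nucleus and 34.9 M and 37.4 M for total RNA. Reads falling in annotated exons made up about 60.2% and 59.0% of those reads in the cytoplasm, 23.1% and 24.8% in the nucleus and 58.6% and 66.5% in total RNA. The median FPKM of tested coding genes was 3.82 and 3.60 in the cytoplasm, 1.501 and 1.753 in the nucleus and 4.24 and 4.95 in total RNA. Because most genes were lower in the nuclear libraries, differences are also given after the libraries were scaled to 1 median.

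The cell labels were compared with marker lists. All 11 forebrain progenitor markers and 9 of 10 neuron markers had a mean of at least 1 FPKM, against 0 of 8 astrocyte and oligodendrocyte markers. The summed neuron markers stood at 282 and 255 FPKM in the cytoplasm, 86.3 and 101 in the nucleus and 528 and 596 in total RNA. Summed progenitor markers ran the other way between cytoplasm and total RNA, at 848 and 793, 366 and 395, and 451 and 479 FPKM. Of the 10 neuron markers, 8 were higher in both total-cell libraries than in all 4 fraction libraries. The 3 nuclear RNA markers, MALAT1, NEAT1 and MIAT, also summed to 688 and 862 FPKM in total RNA and only 65.5 and 79.8 in the nucleus. In the cytoplasm they summed to 36.5 and 36.4, and MALAT1 made up most of every sum. NEAT1 measured 0.624 ± 0.00436 FPKM in the cytoplasm and 0.455 ± 0.0751 in the nucleus, and MIAT 1.20 ± 0.00306 and 1.62 ± 0.108. Comparisons with total RNA below are read beside these values, and the part that cell makeup or loss of nuclear RNA has in them was not tested.

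The sequences most directly tied to the results are shown first. H19 carries in an exon the hairpin of miR-675, and its 2 mature forms, neither of which was measured by these libraries, are printed from RefSeq (GRCh38.p14) with the seed, bases 2 to 8, in capitals. The 2 arms share no seed.
hsa-miR-675-5p: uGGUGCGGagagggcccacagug
hsa-miR-675-3p: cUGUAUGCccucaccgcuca

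RefSeq promoter windows were given for 4 of the 10 genes, H19, MEG3, SNRPN and GNAS. Of these, 3 starts are printed as the 250 bases before the start, 5′ to 3′ on the gene's strand. H19 and MEG3 were chosen because these maternally expressed RNAs differed widely in level. The SNRPN start that SNURF shares was chosen because those transcripts moved together, although they are reading frames of a shared transcript and so not independent. Capitals mark TGCCGC or its complement GCGGCA, the hexamer bound, when methylated, by the imprinting factor ZFP57 and found in 12.7% of all promoter windows of that length. The H19 window (chr11:2001267-2001516, minus strand) held 0 matches and 4 CG pairs, the MEG3 window (chr14:100825858-100826107, plus strand) 1 match and 13 CG pairs, and the SNRPN window (chr15:24954737-24954986, plus strand) 2 matches and 12 CG pairs, beside a median of 11 CG pairs over all windows. A match of letters does not show binding.
H19 upstream: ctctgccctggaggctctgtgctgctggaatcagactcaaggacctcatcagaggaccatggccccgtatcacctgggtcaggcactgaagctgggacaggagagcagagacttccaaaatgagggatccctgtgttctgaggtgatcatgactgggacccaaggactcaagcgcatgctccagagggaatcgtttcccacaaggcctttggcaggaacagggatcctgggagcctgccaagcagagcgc
MEG3 upstream: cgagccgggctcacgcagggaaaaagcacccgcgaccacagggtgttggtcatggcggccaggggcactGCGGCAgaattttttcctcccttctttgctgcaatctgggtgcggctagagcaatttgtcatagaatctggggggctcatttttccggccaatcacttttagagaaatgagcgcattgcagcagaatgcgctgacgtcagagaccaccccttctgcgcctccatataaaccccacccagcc
SNRPN and SNURF upstream: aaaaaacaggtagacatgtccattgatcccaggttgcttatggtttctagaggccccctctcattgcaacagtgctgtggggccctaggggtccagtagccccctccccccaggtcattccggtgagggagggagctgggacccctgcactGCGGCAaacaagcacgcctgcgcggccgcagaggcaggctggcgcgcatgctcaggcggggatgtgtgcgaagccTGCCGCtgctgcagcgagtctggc

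H19, a spliced long noncoding RNA on chromosome 11 from 1995176 to 2001470 (hg38, minus strand), was the most abundant of the noncoding members. Its level was 45.1 and 41.1 FPKM in the cytoplasm, 5.35 and 4.82 in the nucleus and 16.9 and 16.2 in total RNA, resting on 1559.5 to 5437 reads in each. The fractions did not overlap in any pairing, with the cytoplasm highest and the nucleus lowest. H19 was higher in the cytoplasm than in the nucleus by 2.86 ± 0.13 on the log2 scale (limma SE, Benjamini-Hochberg adjusted p = 7.7e-05), the rank 2 value among 4540 tested lncRNAs, whose median was 0.26. After scaling to 1 median the difference was 2.13 (adjusted p = 0.00025). The log2(FPKM + 1) scale draws genes of low level toward 0, so the rank depends on level as well as on the change. The median tested lncRNA stood at 0.736 and 0.683 FPKM in the cytoplasm and 0.367 and 0.424 in the nucleus. H19 was also higher in the cytoplasm than in total RNA (log2 fold change 1.33 ± 0.13, adjusted p = 5.0e-05) and, as deposited, lower in the nucleus than in total RNA (-1.53 ± 0.13, adjusted p = 2.0e-05), but this last value became 0.17 after scaling (adjusted p = 0.297).

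KCNQ1OT1 lies on chromosome 11 from 2608328 to 2699994 (minus strand), antisense inside KCNQ1, and is an unspliced RNA known to stay in the nucleus. It measured 0.016 and 0.027 FPKM in the cytoplasm, 0.040 and 0.051 in the nucleus and 1.048 and 1.22 in total RNA. Over its 91667 annotated bases these levels correspond to 58 and 112 reads, 440 and 520 reads, and 3349 and 4194 reads. Both fractions were thus far below total RNA, which was 52.7 times the cytoplasmic mean and 25.1 times the nuclear mean. The fraction means lay below the 0.3 FPKM needed for testing, which KCNQ1OT1 reached through total RNA alone. The direction of these differences was thus fixed by the filter, though not their size. The cytoplasm and nucleus did not overlap, but on the log2(FPKM + 1) scale their difference was -0.03 ± 0.07 (limma adjusted p = 0.760), a scale that understates changes at such levels. The differences from total RNA were -1.06 ± 0.07 in the cytoplasm (adjusted p = 9.2e-06) and -1.03 ± 0.07 in the nucleus (adjusted p = 9.4e-06), or -3.34 and -3.09 with a pseudocount of 0.1 FPKM.

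The sense gene KCNQ1, a potassium channel, stood at only 0.144 ± 0.00847 FPKM in total RNA (SD, n = 2). The libraries were stranded, per the labels, but whether strand was used in counting is not given in the sources used here, and without it reads of KCNQ1 introns and of KCNQ1OT1 could not be told apart. MALAT1, a nuclear RNA used as a marker, had a like pattern, with 31.5 ± 0.0390 FPKM in the cytoplasm, 63.8 ± 8.93 in the nucleus and 640 ± 102 in total RNA. The part that incomplete recovery of nuclear RNA has in the KCNQ1OT1 values was not tested.

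MEG3, the maternally expressed noncoding RNA of 14q32 on chromosome 14 from 100779410 to 100861031 (plus strand), was low in every library. It measured 0.043 and 0.032 FPKM in the cytoplasm, 0.023 and 0.015 in the nucleus and 0.065 and 0.060 in total RNA, which over 23224 exon bases is 33.8 to 65.5 reads in a library. Per length, H19 was 264 times higher than MEG3 in total RNA and 1156 times higher in the cytoplasm. The MEG3 length joins the exons of 48 annotated transcripts, of which the longest has 12990 bases. Per-length levels of MEG3 are thus understated where shorter transcripts are made. In reads, total RNA held 1705 and 1757 for H19 and 52.5 and 52.5 for MEG3. MEG3 did not reach the 0.3 FPKM needed for testing. Without that filter its difference between nucleus and total RNA was called (-0.06, limma adjusted p = 0.0211) and the other comparisons were not. Its neighbours in the same maternal transcription unit were as low in total RNA, MEG8 at 0.0426 ± 0.00711 FPKM and MEG9 at 0.0599 ± 0.0198.

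**Figure D1:**
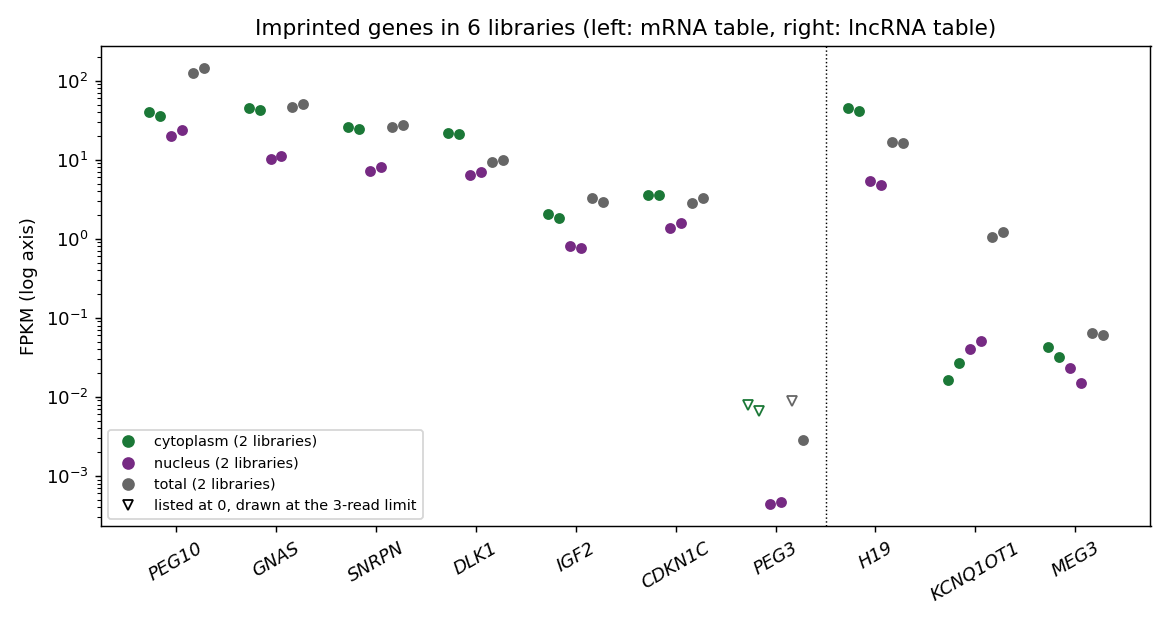
FPKM of the 10 imprinted genes on a log axis, 1 point per library, coloured by fraction; open triangles are values listed at 0, drawn at the level of 3 reads. H19 was highest in both cytoplasmic libraries, KCNQ1OT1 and PEG10 were highest in both total-cell libraries, and PEG3 had at most about 1 read in any library.

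The paternally expressed partner of MEG3 at 14q32, DLK1, was in contrast well expressed. DLK1 encodes a transmembrane protein of the Notch ligand family and lies on chromosome 14 from 100725705 to 100738224 (plus strand). In total RNA its level per length was 152 times that of MEG3 in the same table, with the limit of the MEG3 length given above. DLK1 measured 22.1 and 21.1 FPKM in the cytoplasm, 6.39 and 7.02 in the nucleus and 9.32 and 10.01 in total RNA. All 3 fractions were apart, with the cytoplasm above total RNA and total RNA above the nucleus. The cytoplasm exceeded the nucleus by 1.55 ± 0.13 on the log2 scale (limma adjusted p = 2.6e-33; 0.46 after scaling, adjusted p = 3.7e-05) and total RNA by 1.08 ± 0.13 (adjusted p = 9.5e-17). As deposited, DLK1 was the only coding member called higher in the cytoplasm than in total RNA. Its difference between nucleus and total RNA changed sign with the scaling, from -0.47 as deposited (adjusted p = 0.000252) to 0.87 (adjusted p = 3.6e-07).

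IGF2, a fetal growth factor that signals through the receptor IGF1R, lies on chromosome 11 from 2129112 to 2149603 (minus strand). Its level was modest, at 2.09 and 1.82 FPKM in the cytoplasm, 0.805 and 0.768 in the nucleus and 3.26 and 2.95 in total RNA. The 3 fractions did not overlap and total RNA was highest. The cytoplasm exceeded the nucleus by 0.72 ± 0.11 (limma adjusted p = 1.8e-10), near the median of 0.82 over all tested coding genes, and after scaling by 0.07 (adjusted p = 0.478). Of the IGF2 exon bases 73.7% overlap other entries on the same strand, a second entry named IGF2, the readthrough INS-IGF2 and AC132217.1 together, so the level is uncertain if the counting split such reads; INS-IGF2 itself was at most 0.0172 ± 0.00403 FPKM.

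CDKN1C encodes p57, an inhibitor of cyclin-dependent kinases that restrains the cell cycle, and lies on chromosome 11 from 2883213 to 2885773 (minus strand). It measured 3.57 and 3.57 FPKM in the cytoplasm, 1.38 and 1.60 in the nucleus and 2.88 and 3.26 in total RNA. Cytoplasm and nucleus were apart by 0.88 ± 0.12 (limma adjusted p = 3.0e-13), which became 0.05 after scaling (adjusted p = 0.375). The cytoplasm and total RNA differed by 0.17 ± 0.12 as deposited (adjusted p = 0.186) and by 0.37 after scaling (adjusted p = 6.1e-05).

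GNAS encodes the alpha subunit of the stimulatory G protein, which couples receptors to adenylyl cyclase, and lies on chromosome 20 from 58839718 to 58911192 (plus strand). It measured 45.9 and 42.5 FPKM in the cytoplasm, 10.2 and 11.3 in the nucleus and 47.1 and 51.6 in total RNA. The nuclear values were far below the others, which were close to each other. The cytoplasm exceeded the nucleus by 1.94 ± 0.13 (limma adjusted p = 1.6e-48; 0.82 after scaling, adjusted p = 5.7e-07), above 95.2% of tested coding genes, and total RNA exceeded the nucleus by 2.1 ± 0.13. Between cytoplasm and total RNA the difference was -0.15 ± 0.13 (adjusted p = 0.277), or 0.14 after scaling (adjusted p = 0.0366). GNAS is imprinted for some of its alternative transcripts only, and the values sum all of them. The GNAS length joins 13320 exon bases of 58 annotated transcripts, of which the longest has 4029 bases. Per-length levels of GNAS are thus understated where shorter transcripts are made.

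SNRPN encodes SmN, a core protein of spliceosomal ribonucleoproteins that is abundant in brain, and lies on chromosome 15 from 24823637 to 24978723 (plus strand). It measured 26.3 and 24.7 FPKM in the cytoplasm, 7.14 and 8.02 in the nucleus and 25.9 and 27.8 in total RNA, so the cytoplasm and total RNA overlapped and the nucleus was apart. The cytoplasm exceeded the nucleus by 1.63 ± 0.13 (limma adjusted p = 1.5e-35; 0.53 after scaling, adjusted p = 1.3e-05). The difference from total RNA was -0.07 ± 0.13 (adjusted p = 0.637), or 0.22 after scaling (adjusted p = 0.00411). About 33.6% of its exon bases are shared with other genes of the same strand, SNURF, AC124312.1 and SNHG14 together, so reads could have been split among them. SNURF is the other reading frame of a shared transcript.

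PEG10, a paternally expressed gene derived from a retrotransposon whose protein forms capsid-like particles, lies on chromosome 7 from 94656325 to 94669695 (plus strand). Per exon length it was the highest coding member in total RNA, at 125 and 146 FPKM, above GNAS, whose length has the limit given above. PEG10 was much lower in the cytoplasm, at 40.0 and 36.0, and in the nucleus, at 20.2 and 24.0. Both fractions were thus below both total-cell libraries. The cytoplasm was lower than total RNA by 1.80 ± 0.13 on the log2 scale (limma adjusted p = 8.1e-41), a value above only 2.26% of tested coding genes, and the nucleus differed by -2.56 ± 0.13 (adjusted p = 7.3e-81), above 0.371% of them. Scaling left these at -1.5 and -1.1. The cytoplasm exceeded the nucleus as deposited (0.76 ± 0.13, adjusted p = 1.7e-08), but after scaling it was lower (-0.40, adjusted p = 6.6e-05).

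The neuron markers had a pattern like that of PEG10: 8 of the 9 tested were lower in the cytoplasm than in total RNA and 0 higher, beside 43.9% of all tested coding genes lower and 30.3% higher. After scaling all 9 were called, 8 lower and 1 higher, beside 84.9% of all coding genes called in either direction. Of the 9, RBFOX3 and ELAVL4 had means below 1 FPKM in both fractions and passed the filter through total RNA. DCX, a microtubule protein of young neurons, measured 22.7 ± 1.86 FPKM in the cytoplasm, 10.96 ± 1.70 in the nucleus and 80.1 ± 10.5 in total RNA. DLK1 and H19 were higher in the cytoplasm than in total RNA, as were 7 of 11 progenitor markers, while 4 were lower. VIM, an intermediate filament gene of progenitors, measured 606 ± 33.2 FPKM in the cytoplasm and 299 ± 12.4 in total RNA. The 6 markers of cytoplasmic RNA, taken as a check of the fractions, summed to 5440.1 and 4541 FPKM in the cytoplasm, 519 and 561 in the nucleus and 3998 and 4169 in total RNA. As deposited, 3 of them were higher in the cytoplasm than in total RNA and 0 lower, beside 30.3% of all coding genes higher, and 6 of 6 were lower in the nucleus, beside 94.7%. After scaling all 6 were called, 4 lower in the nucleus and 2 higher, beside 78% of all coding genes called in either direction. As deposited, the log2 differences of cytoplasm and of nucleus from total RNA were 1.49 and -1.15 for RPS2, a ribosomal protein gene, and 1.03 and -2.0 for FTH1, the ferritin heavy chain gene, beside 1.33 and -1.53 for H19 in its own table. Fewer cells of a type and less RNA per cell cannot be told apart in these bulk libraries, and the part of cell makeup in the PEG10, DLK1 and H19 values was not tested.

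Markers of other cell types that can express these genes were also listed. The 12 mesenchyme, vessel and neural crest markers summed to 72.5 and 66.4 FPKM in the cytoplasm, 46.3 and 53.9 in the nucleus and 47.7 and 56.6 in total RNA, with 6 of 12 reaching 1 FPKM. COL3A1, a fibrillar collagen, led that list in total RNA with 24.8 ± 3.67 FPKM, while the endothelial marker PECAM1 stood at 0.0508 ± 0.000324. The 10 endoderm and trophoblast markers summed to 64.2 and 58.8, 17.5 and 20.9, and 34.6 and 39.1 FPKM. Most of this was TTR, at 56.5 ± 3.73 in the cytoplasm, and only 3 of the 10 reached 1 FPKM. AFP ran the other way, at 1.37 ± 0.0855 FPKM in the cytoplasm and 9.83 ± 1.19 in total RNA. SOX17 and GATA4 stood at 0.0232 ± 0.0155 and 0.0517 ± 0.0232 FPKM in total RNA. The 7 pluripotent stem cell markers summed to 21.3 and 20.4 FPKM in the cytoplasm, 6.39 and 7.34 in the nucleus and 9.87 and 12.0 in total RNA, with 3 of 7 reaching 1 FPKM. LIN28A, an RNA-binding protein of early progenitors, led them with 13.9 ± 0.477 FPKM in the cytoplasm and 5.26 ± 0.819 in total RNA, while POU5F1 stood at 0.0469 ± 0.0410 in the cytoplasm and 0.00463 ± 0.00655 in total RNA. The part of these cell types in the H19, IGF2 and DLK1 levels was not tested.

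PEG3, a paternally expressed zinc finger gene on chromosome 19 from 56810077 to 56840728 (minus strand), was listed at 0 in both cytoplasmic libraries and in 1 total-cell library. The other 3 libraries held the equivalent of 0.514, 0.514 and 1.03 reads over its annotated exon length. A count of 0 allows up to 3 reads, or 0.00794 and 0.00672 FPKM in the cytoplasmic libraries and 0.00881 in that total-cell library, counting error only. PEG3 was therefore not detectable above this limit in any library and was not tested. Its neighbours ZIM2, MIMT1, USP29 and ZIM3 had means of at most 0.00819 FPKM in any fraction, whereas ZNF264 of the same region reached 4.03 ± 0.435 FPKM in total RNA.

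Ranked by total RNA, the coding members stood in the order PEG10, GNAS, SNRPN, DLK1, IGF2, CDKN1C and PEG3. IGF2 and CDKN1C overlapped there, with means of 3.10 ± 0.215 and 3.07 ± 0.269 FPKM, and every other neighbouring pair was apart in both libraries. In the cytoplasm the order became GNAS, PEG10, SNRPN, DLK1, CDKN1C, IGF2, and in the nucleus PEG10, GNAS, SNRPN, DLK1, CDKN1C, IGF2. The place of GNAS below PEG10 in total RNA and in the nucleus is uncertain, given the joined exon length of GNAS. Among the noncoding members H19 was highest in every fraction, while KCNQ1OT1 was above MEG3 in total RNA and in the nucleus and below it in the cytoplasm.

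Between cytoplasm and nucleus, 6 of the 6 tested coding members were called higher in the cytoplasm, where 91.3% of tested genes of the mRNA table were called in either direction and 90.1% higher, so that count is near the background. After scaling DLK1, SNRPN and GNAS stayed higher, PEG10 was lower and IGF2 and CDKN1C were not called, beside 73.4% of genes called, 40% higher and 33.4% lower. Of the 2 noncoding members tested, H19 was called higher and KCNQ1OT1 was not called, where 45.6% of lncRNAs were called and 44.3% were higher. After scaling 31.3% of lncRNAs were called, and H19 kept its call in every alternative tried, including each library left out in turn.

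**Figure D2:**
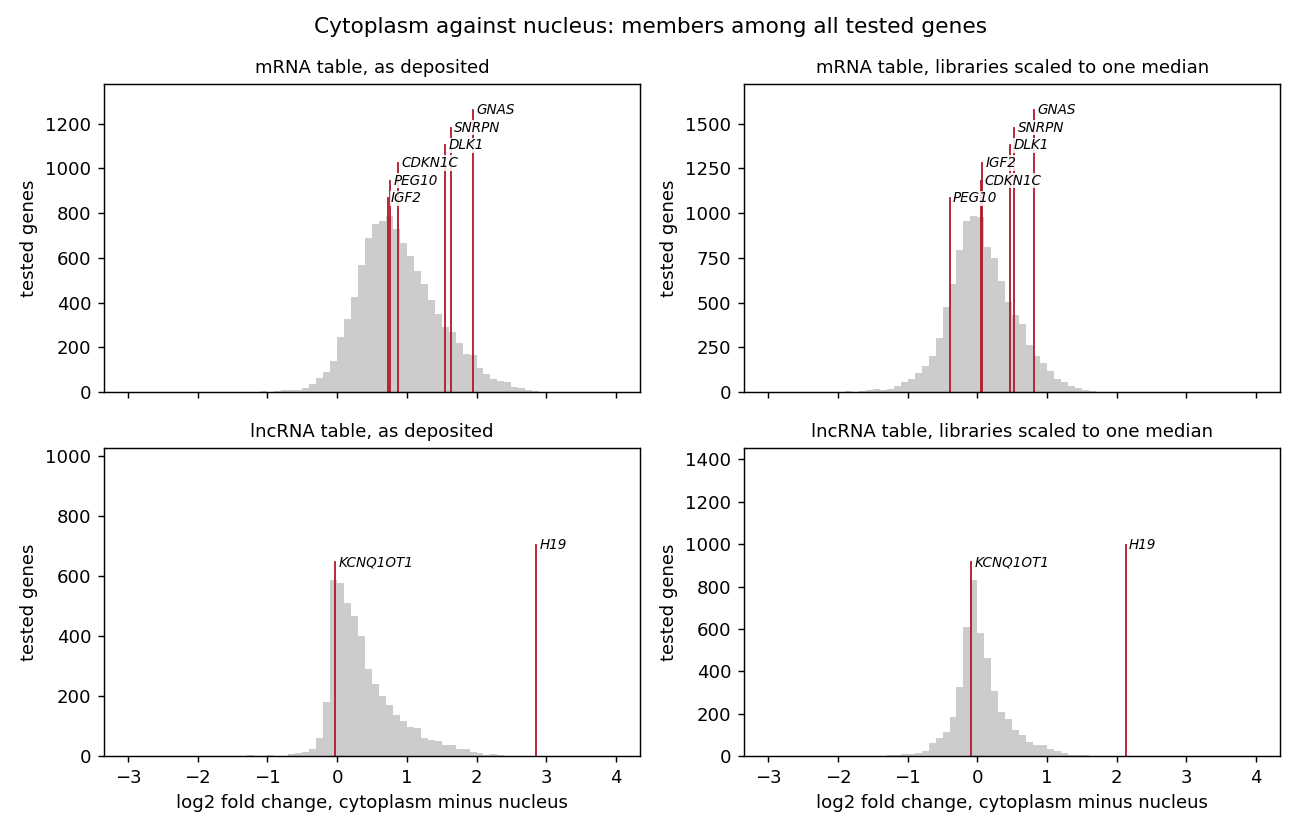
Histograms of the log2 fold change between cytoplasm and nucleus over all tested genes of the mRNA table (top) and lncRNA table (bottom), as deposited (left) and with libraries scaled to 1 median (right); red lines are the tested members. H19 lies at 2.86 and 2.13, at the edge of the lncRNA distribution, on a log2(FPKM + 1) scale that draws low genes toward 0. IGF2 and CDKN1C lie near the middle of the coding genes in both panels. PEG10 lies at 0.76 as deposited and at -0.40 after scaling.

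Between cytoplasm and total RNA, 3 coding members were called, DLK1 higher and IGF2 and PEG10 lower, beside 74.3% of genes called, 30.3% higher and 43.9% lower. IGF2 was lower by 0.48 ± 0.11 on the log2 scale (limma adjusted p = 4.3e-05). Both noncoding members were called, H19 higher and KCNQ1OT1 lower, beside 70.4% of lncRNAs, of which 12.6% were higher and 57.8% lower. Between nucleus and total RNA all 6 tested coding members and both noncoding members were called lower, beside 94.7% of coding genes and 88% of lncRNAs called lower and 95.4% and 88.8% called in either direction. After scaling, with 78% of coding genes and 61.1% of lncRNAs called between nucleus and total RNA, DLK1 and CDKN1C turned to higher in the nucleus and H19 lost its call. Between cytoplasm and total RNA scaling gave calls for 84.9% of coding genes and 70.9% of lncRNAs, and 6 of the 6 tested coding members were called, 4 higher (DLK1, CDKN1C, SNRPN and GNAS) and 2 lower (IGF2 and PEG10). The comparisons with total RNA share the total-cell libraries, so they are not independent of each other.

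**Figure D3:**
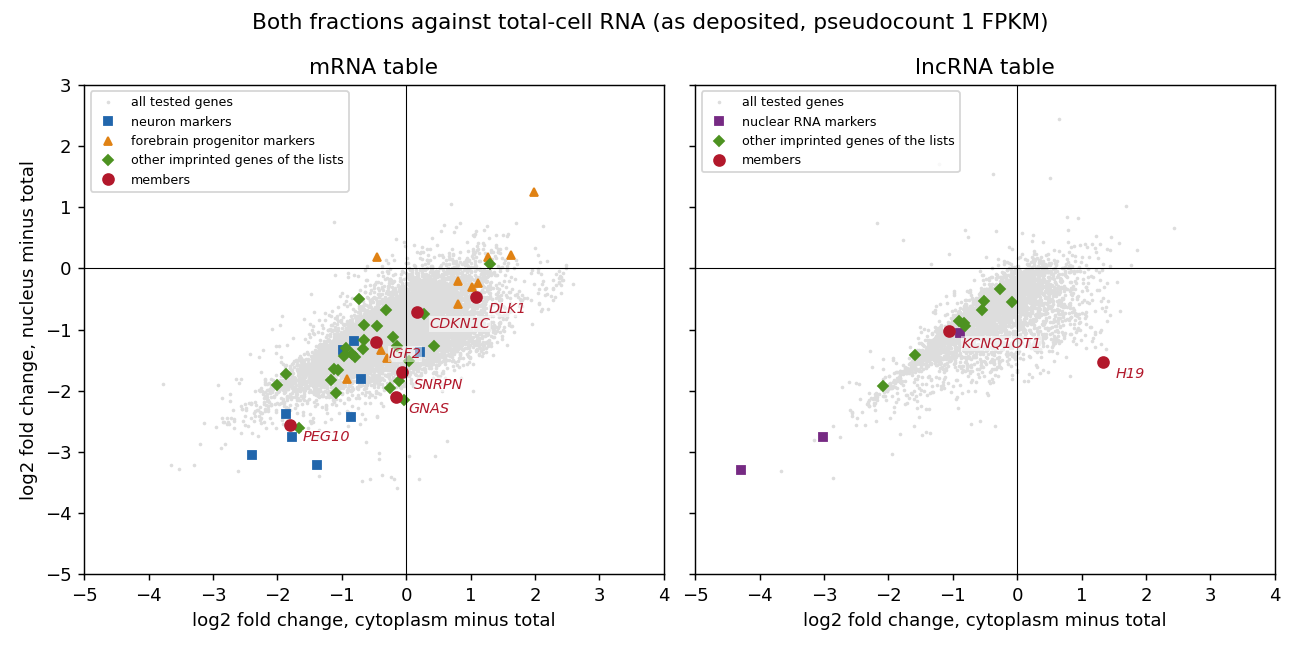
Log2 fold change of cytoplasm against total RNA (x axis) and of nucleus against total RNA (y axis), as deposited, with a pseudocount of 1 FPKM; grey points are all tested genes, red points the members, and coloured symbols the marker lists and the other imprinted genes. PEG10 lies at -1.80 and -2.56 among the neuron markers, DLK1 at 1.08 and -0.47 near progenitor markers, and H19 at 1.33 and -1.53 apart from KCNQ1OT1 at -1.06 and -1.03.

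Ratios of genes within a library do not depend on how the libraries are scaled, and were taken in the mRNA table, which lists all these genes. H19 to IGF2, the pair that competes for enhancers at 11p15, was 22.2 and 23.1 in the cytoplasm, 6.79 and 6.54 in the nucleus and 5.41 and 5.84 in total RNA. The cytoplasmic ratios were thus apart from all the others. CDKN1C to IGF2 overlapped between cytoplasm, at 1.71 and 1.96, and nucleus, at 1.71 and 2.08, and was lower in total RNA at 0.884 and 1.10. CDKN1C to KCNQ1OT1, the protein gene and the RNA that silences it on the paternal copy, fell from 224 and 136 in the cytoplasm to 35.4 and 32 in the nucleus and 2.78 and 2.70 in total RNA.

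SNRPN to SNURF varied little, at 1.45 and 1.49 in the cytoplasm, 1.42 and 1.47 in the nucleus and 1.62 and 1.59 in total RNA. The cytoplasmic and nuclear ratios overlapped and total RNA was slightly higher. These genes share a transcript, exon bases and the start whose upstream bases are printed above, so their levels are not independent of each other. PEG10 to SGCE, the neighbour that is read from the opposite strand, was 15.3 and 17.0, 19.2 and 17.7, and 23.2 and 22.0 in the 3 fractions. DLK1 to DIO3, a thyroid hormone deiodinase at the far end of the 14q32 domain, was 13.2 and 12.5 in the cytoplasm, 7.61 and 7.36 in the nucleus and 3.19 and 2.78 in total RNA. The spread of DLK1 to PEG10 was wider still, from 0.552 and 0.586 in the cytoplasm to 0.0748 and 0.0684 in total RNA.

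**Figure D4:**
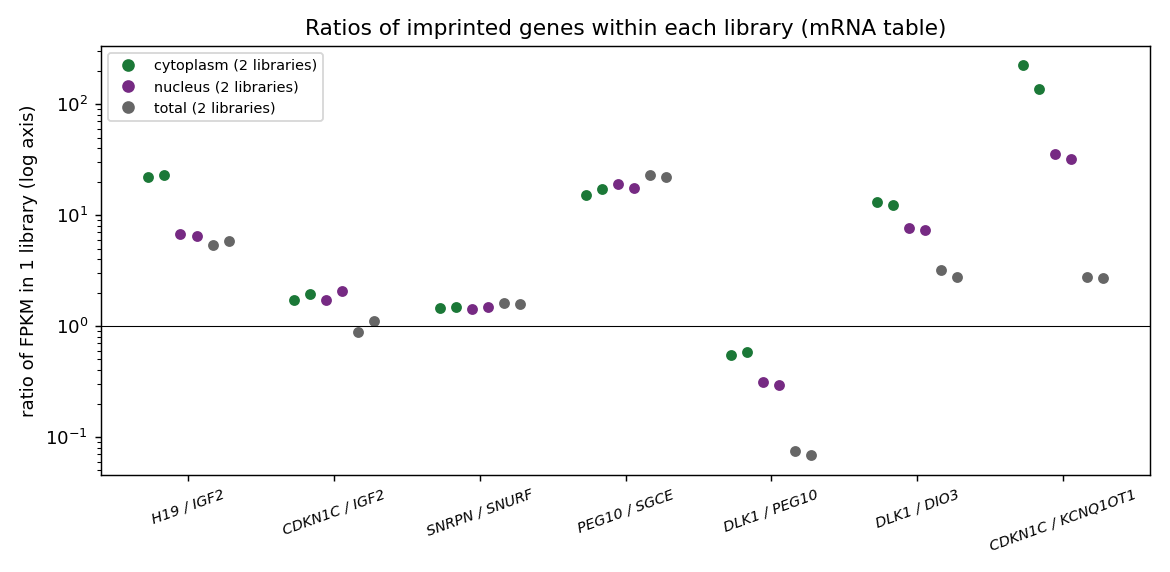
Ratios of FPKM between imprinted genes in each library (log axis, mRNA table), 1 point per library, coloured by fraction; the line marks a ratio of 1. H19 to IGF2 is 22.2 and 23.1 in the cytoplasm against 5.41 to 6.79 elsewhere, and SNRPN to SNURF stays between 1.42 and 1.62.

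The rest of the imprinted regions was described from lists of 83 further genes, of which 35 passed the filter on low values. Of 26 coding genes tested, 23 were higher in the cytoplasm than in the nucleus and 0 lower, beside 90.1% of all coding genes higher, with a median of 0.65 beside 0.82. After scaling 8 were higher and 9 lower, beside 40% and 33.4% of all coding genes. Against total RNA, 3 were higher and 17 lower in the cytoplasm, beside 30.3% and 43.9% of all coding genes. The median was -0.66 beside -0.13 for all coding genes. PPP1R9A and DDC had means below 1 FPKM in both fractions and passed the filter through total RNA, which fixed their direction. In 20 of the 26, both total-cell libraries exceeded all 4 fraction libraries, beside 49.6% of all tested coding genes and 3 of the 6 tested coding members (IGF2, PEG10 and GNAS, the last by a small margin).

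NNAT, a brain-enriched membrane proteolipid, was the most abundant of these, with 264 ± 12.2 FPKM in the cytoplasm, 59.5 ± 1.66 in the nucleus and 269 ± 5.82 in total RNA. MEST, which encodes a predicted hydrolase, followed with 52.2 ± 0.244, 15.1 ± 2.30 and 57.0 ± 9.23 FPKM. NNAT exceeded its nuclear level in the cytoplasm by 2.13 on the log2 scale (limma adjusted p = 2.1e-54) and MEST by 1.73 (adjusted p = 1.85e-38). BLCAP, whose intron holds NNAT, and COPG2, a neighbour of MEST, also had a cytoplasmic excess, of 1.70 and 0.94. After scaling these 4 differences were 0.95, 0.59, 0.59 and -0.01. COPG2 stood apart in total RNA with 20.9 ± 2.83 FPKM against 5.88 ± 0.167 in the cytoplasm.

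At 15q11-q13, SNURF shares a transcript with SNRPN and is not independent of it, while NDN is a neuronal growth suppressor of the MAGE family. Both resembled SNRPN, with cytoplasmic excesses over the nucleus of 1.56 and 1.71 (0.49 and 0.61 after scaling). MAGEL2 (0.65) and UBE3A (0.52), a ubiquitin ligase imprinted in neurons, had smaller ones, which became -0.12 and -0.30 after scaling. The tested noncoding RNAs of the same region had none that was called, beside 45.6% of all tested lncRNAs. After scaling SNHG14 (-0.69) and PWAR5 (-0.70) were called lower in the cytoplasm than in the nucleus, beside 31.3% of lncRNAs called in either direction. SNHG14, the long host transcript that runs past SNRPN, measured 0.897 ± 0.0247 FPKM in the cytoplasm, 1.13 ± 0.145 in the nucleus and 4.72 ± 0.721 in total RNA. PWAR5 measured 1.11 ± 0.0485, 1.35 ± 0.186 and 7.94 ± 1.29, and PWAR1 0.00536 ± 0.00758, 0.0360 ± 0.0120 and 0.892 ± 0.186. PWRN4 measured 0.160 ± 0.00273, 0.0555 ± 0.00509 and 0.694 ± 0.0944. By level PWRN4 was thus higher in the cytoplasm than in the nucleus and PWAR1 lower, differences that the pseudocount of 1 FPKM understates.

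Of the 9 further imprinted lncRNAs tested, 9 were higher in both total-cell libraries than in all 4 fraction libraries, beside 65.5% of tested lncRNAs. KCNQ1OT1 was so too. PWAR1, PWRN4, GNAS-AS1, DIO3OS, HYMAI and KCNQ1OT1 had means below 0.3 FPKM in both fractions and passed the filter through total RNA. For these a highest mean in total RNA was fixed by the filter. GNAS-AS1, antisense to GNAS, measured 0.188 ± 0.0213 FPKM in the cytoplasm, 0.137 ± 0.0230 in the nucleus and 1.10 ± 0.0330 in total RNA. DIO3OS at 14q32 measured 0.206 ± 0.0154, 0.195 ± 0.0113 and 0.727 ± 0.152. The 1 of the 9 called higher in the cytoplasm than in the nucleus was ZIM2-AS1 of the PEG3 region, beside 44.3% of tested lncRNAs. Its log2 fold change was 0.48 (limma adjusted p = 0.00366), or 0.16 after scaling (adjusted p = 0.213). H19 was thus unlike them in the size of its cytoplasmic excess by value, on a scale that understates changes of low genes. That difference was not tested.

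In the 7q21 region SGCE, a sarcoglycan, resembled PEG10 with 2.37 ± 0.353 FPKM in the cytoplasm, 1.21 ± 0.216 in the nucleus and 6.01 ± 0.892 in total RNA. PPP1R9A, an actin-binding scaffold of neurons, had a larger difference between cytoplasm and total RNA, of -2.0 on the log2 scale (limma adjusted p = 7.1e-75). TFPI2, a protease inhibitor, ran the other way with 1.30 (adjusted p = 7.2e-26). At 14q32 DIO3 differed from DLK1 in direction, with -0.66 between cytoplasm and total RNA (adjusted p = 9.9e-09). OSBPL5, the remaining tested gene of 11p15, had -0.65 there (adjusted p = 1.8e-08).

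Genes that set or keep imprints were mostly expressed, 14 of 19 passing the filter. The exceptions included ZFP57, listed at 0 in all 6 libraries, while ZNF445, a zinc finger factor that also maintains imprints, measured 4.67 ± 0.727 FPKM in total RNA. TRIM28, the corepressor they recruit, measured 58.4 ± 2.52 FPKM in the cytoplasm, 25.3 ± 1.72 in the nucleus and 36.3 ± 3.71 in total RNA. DNMT3A, a methyltransferase that sets new methylation, CTCF, the insulator protein of the H19 control region, and EZH2, a Polycomb methyltransferase, stood at 11.5 ± 1.17, 11.3 ± 0.6 and 10.8 ± 0.630 FPKM in total RNA. Between cytoplasm and nucleus 12 of the 14 were higher and 0 lower, with a median of 0.79, beside 90.1% of all coding genes higher and a median of 0.82. After scaling 0 were higher and 7 lower, beside 40% and 33.4%.

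Signalling partners of IGF2, DLK1 and GNAS were next, with 26 of 31 genes tested, 23 higher in the cytoplasm than in the nucleus and 1 lower, beside 90.1% of all coding genes higher. After scaling 5 were higher and 13 lower, beside 40% and 33.4% of all coding genes. GNB1, a G protein beta subunit, measured 96.0 ± 6.14 FPKM in the cytoplasm and 23.6 ± 1.79 in the nucleus, a difference of 1.98 near that of GNAS. IGFBP2, which binds IGF2 outside the cell, measured 86.5 ± 2.86 FPKM in the cytoplasm against 36.6 ± 0.986 in total RNA. GNAI2, an inhibitory G protein subunit, and PRKAR1A, a regulatory subunit of protein kinase A, measured 21.5 ± 0.715 and 31.2 ± 3.72 FPKM in total RNA. The receptors IGF1R and IGF2R were at 8.32 ± 1.08 and 6.12 ± 0.944 FPKM there, and the related ligand IGF1 was at 0.00858 ± 0.000431. NOTCH1 was the 1 gene that was lower in the cytoplasm, by 0.35 (limma adjusted p = 0.00697); these last 4 genes were named after their values were seen.

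Of 14 cell cycle genes listed beside CDKN1C, 10 were tested. All 10 were higher in the cytoplasm than in the nucleus, beside 90.1% of all coding genes, with a median of 1.20. After scaling 6 were higher and 2 lower, beside 40% and 33.4% of all coding genes. CDKN1A, the related inhibitor p21, measured 59.1 ± 2.03 FPKM in the cytoplasm and 13.2 ± 1.07 in total RNA, above CDKN1C in both. CDK4 measured 33.2 ± 0.484 and 12.0 ± 1.39 FPKM, CCND1 19.5 ± 0.542 and 8.50 ± 0.941, and CCND2 20.7 ± 0.992 and 15.8 ± 2.45. Against total RNA 7 of the 10 were higher in the cytoplasm, beside 30.3% of all coding genes, a comparison in which CDKN1C itself was not called.

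Of the 12 genes for spliceosomal proteins listed beside SNRPN, 12 were tested and 11 were higher in the cytoplasm than in the nucleus, beside 90.1% of all coding genes, with a median of 1.86 against 1.63 for SNRPN. SNRPB, whose protein SmB is closely related to SmN, measured 51.9 ± 0.900 FPKM in the cytoplasm, 12.7 ± 0.890 in the nucleus and 19.4 ± 2.89 in total RNA. SNRPC measured 52.9 ± 0.901, 10.2 ± 0.595 and 25.0 ± 0.995, and SNRPD2 49.9 ± 0.194, 8.16 ± 0.121 and 16.7 ± 0.989. Against total RNA 8 of the 12 were higher in the cytoplasm, beside 30.3% of all coding genes. SNRPN, with 25.5 ± 1.13 FPKM in the cytoplasm and 26.8 ± 1.32 in total RNA, was not called there. SNRNP70 was the exception between cytoplasm and nucleus, with 0.22 as deposited (limma adjusted p = 0.0928), and after scaling it was lower in the cytoplasm (-0.92, adjusted p = 3.3e-06).

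The genes with the nearest profiles over the 6 libraries were found by Euclidean distance of centred log2(FPKM + 1) among genes of at least 5 times the filter. For GNAS they were CNIH2, GABARAPL2 and NNAT, the last itself imprinted, at distances of 0.186, 0.194 and 0.205. For PEG10 they were PAK3, MEIS2 and DCLK1 (0.140, 0.157 and 0.182). SNRPN was nearest to PSME3IP1, VAT1 and ZCRB1, DLK1 to CYC1, PYCR1 and EMC6, CDKN1C to BAIAP2, RTL6 and XAB2 and IGF2 to KDM6B, ARID1A and JUP. RTL6, like PEG10, derives from a retrotransposon. H19 had no neighbour as near, with AC112491.1, AC245033.4 and AC005062.1 at 0.376, 0.415 and 0.460, and KCNQ1OT1 was nearest to SMARCA5-AS1, NAV2-AS2 and AC244517.5. With 3 fractions such likeness is easily reached, and it is given as a description.

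Base composition of the longest annotated transcript was compared because the title of the series names the export of A-rich circular RNAs. KCNQ1OT1 had the highest share of A of the 10, at 32.7%, beside a median of 26.4% over tested lncRNAs, and H19 was at 20.02%. Of the coding members PEG3 had 29.9% A and PEG10 28.5%, CDKN1C had 17.8%, IGF2 21.4% and DLK1 22.1%, beside a median of 25.6%. These shares are given over 10 transcripts as a description.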

How the data were processed

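Per the labels' protocols, the 6 libraries were stranded and depleted of ribosomal RNA. The submitters' processing notes name featureCounts 2.0.1, HISAT2 2.1.0, Trimmomatic 0.39, Bowtie and SAMtools 1.9, with builds GRCh38 and hg38. How strand and shared reads were handled, and the annotation release, were not given in the sources used here. The authors deposited FPKM for genes in an mRNA table, which lists all gene types, and an lncRNA table, and a circular RNA signal in FPB, per the file headers.

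FPKM was tested as log2(FPKM + 1) by limma 3.58.1 in R 4.3.3. All 6 libraries entered 1 fit with fraction as the only factor and a mean-variance trend, and p-values were Benjamini-Hochberg adjusted at 0.05. The pseudocount of 1 FPKM understates changes of low genes. Tested were 10246 of 19777 protein-coding genes with a mean of at least 1 FPKM and 4540 of 17936 lncRNAs with at least 0.3 FPKM, so 8 of the 10 members were tested; MEG3 and PEG3 were not. For coding genes limma took each spread wholly from the trend, so very small p-values rest on it. No count test was run, since FPKM are not counts.

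FPKM times GENCODE v29 exon length came in steps of 1 size per library, which gave the library reads. Within a tolerance of 0.05 reads, 69.5% to 72.1% of lncRNA values were whole, but only 32.1% to 41.4% in the mRNA table, so exon shares and read numbers there are approximate. Positions and overlaps are from GENCODE v29 (hg38).

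Members, gene lists, marker lists, tests and alternatives were chosen with earlier results of these data known. Named are all members, every tested gene of a list with up to 8 tested genes and otherwise the 4 with the highest mean, and the 3 genes nearest to each member. Marker genes, the untested genes and ZNF445, IGF1R, IGF2R, IGF1, NOTCH1, SNRNP70, HYMAI and DDC were named after their values were seen. The fit was checked on simulated data. Alternatives were the pseudocount, the filter, the scaling, the spread, the libraries in the fit, a replicate block, each library left out and the table used.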

Additional observations from a re-analysis of the deposited data

Results flagged for a closer look

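Circular RNAs, closed rings read across a back-splice junction, were not part of the comparisons above. Their deposited unit, FPB, is not defined in the sources used here; reads were recovered from its steps. Of 31559 rings listed, 113 came from 15 host genes of the imprinted lists. Among the 10 members, SNRPN had 4 rings with 12 reads in all, and the other 9 had none listed. Within the imprinted hosts 2 rings exceeded 3 reads in all 6 libraries. The ring of ZDBF2, a paternally expressed gene of chromosome 2 (206279540 to 206297373, hg38), had a mean of 0.998 ± 0.354 FPB in the cytoplasm (SD, n = 2), 0.443 ± 0.0445 in the nucleus and 1.59 ± 0.679 in total RNA. These rest on 15 and 26, 5 and 7, and 9 and 21 reads in libraries of different depth. The ring of GRB10, an adaptor that restrains insulin signalling (chromosome 7, 50669722 to 50703908), had a mean of 0.885 ± 0.301 FPB in the cytoplasm, 0.586 ± 0.130 in the nucleus and 1.06 ± 0.453 in total RNA, from 22 and 14, 6 and 10, and 6 and 14 reads. The study has no samples without these genes to serve as a control for either ring.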

How the results depend on the processing

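Of 405 values of tested members under the alternatives, 388 kept direction and side of the threshold. The 11 that changed sign did so under scaling. Scaled to 1 median, PEG10 was -0.40 between cytoplasm and nucleus, SNRPN 0.22 and GNAS 0.14 between cytoplasm and total RNA, and DLK1 0.87, CDKN1C 0.32 and H19 0.17 between nucleus and total RNA. Scaled by the reads assigned to genes, chosen after seeing the data, IGF2 was -0.0045, CDKN1C -0.038 and PEG10 -0.52 between cytoplasm and nucleus, and DLK1 0.77 and CDKN1C 0.24 between nucleus and total RNA. After scaling to 1 median 6 coding members were called between cytoplasm and total RNA, and 1 noncoding member between nucleus and total RNA, as under the strict filter, the assigned reads and the mRNA factors. The strict filter left 1 noncoding member between cytoplasm and total RNA, since KCNQ1OT1 was no longer tested. No member's call changed when a library was left out.

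Counts over all genes moved mainly with the number tested. The strict filter gave 3364, 2612 and 3344 coding calls for cytoplasm against nucleus, cytoplasm against total and nucleus against total, and for lncRNAs 1339 and 1833 in the last 2 comparisons. No filter gave 11606 and 14954 coding calls and 6710 and 8013 lncRNA calls in those. The lncRNA calls between cytoplasm and nucleus, 2071 as reported, were 1344 with each gene's own spread, 1363 by the assigned reads and 1333 with the mRNA factors. They ranged from 1275 without nucleus replicate 1 to 2428 over the libraries left out; the cause was not tested.

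Replicate numbers are not stated to pair the libraries, and deviations of same-numbered libraries correlated at 0.01 to 0.46 for coding genes and -0.12 to 0.21 for lncRNAs, across genes. A replicate block gave 9370, 7606 and 9773 coding calls beside 9358, 7611 and 9773 without it, 2092, 3201 and 4053 lncRNA calls beside 2071, 3197 and 4031, and the same number of members called. With 2 libraries a fraction, precision rests on the spread shared between genes. PEG3 had no more than about 1 read in any library, so no difference was detectable there.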
